A study of Rattus norvegicus with 10 samples.

Results

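The data described here concern 10 genes of epithelial cell adhesion and of its surface proteases in FoxE1-silenced PCCl3 cells: *Cdh1*, *Prss8*, *St14*, *Itgb4*, *Jup*, *Bcam*, *F11r*, *Tjp3*, *Cldn3* and *Epcam*. They are 10 of 15154 genes that the arrays name through a transcript, each measured by 1 probe. They were proposed with their siFoxE1 ratios known, so those ratios are given as a description and carry no weight as tests. PCCl3 is a differentiated rat thyroid cell line derived from follicular cells and was grown with TSH and other hormones in all groups. Cells were transfected with 25 nM of a pool of siRNAs against FoxE1, a forkhead transcription factor of the thyroid (siFoxE1), with a non-silencing siRNA (siScramble), or left untreated (wt). RNA was taken after 48 h. Each of 2 comparisons, siFoxE1 PCCl3 vs siScramble PCCl3 and siFoxE1 PCCl3 vs wt PCCl3, had 5 arrays with 2 dyes. Cultures 1 to 4 had an array each, with the siFoxE1 sample labelled by Cy5, and the fifth array carried their pooled RNA in opposite dyes, so n is 4 cultures. Both comparisons used the same siFoxE1 extracts, so they are not independent of each other.

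Epithelial cells hold together through stacked junctions. E-cadherin forms the adherens junction and is tied by catenins to actin, claudins and junctional adhesion molecules form the tight junction around scaffold proteins of the ZO family, and desmosomes and hemidesmosomes anchor the cells through keratin filaments. Matriptase and prostasin are serine proteases of the epithelial surface that work in one cascade and shape barrier function. In thyroid follicles these junctions seal the lumen in which thyroglobulin is stored.

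Intensities are on a log2 scale after normalization and are compared only within a gene. On every culture array siFoxE1 was in Cy5 and the other condition in Cy3, so their levels also differ by dye. No spot was saturated, and 56.8 to 68.2% of the gene spots per array and dye were well above background, as the scanner software marks them. *Foxe1* RNA was lower in siFoxE1 cells on each of the 10 arrays, with log2 fold changes of -0.80 against siScramble (adjusted p = 0.0228, limma) and -0.86 against wt (adjusted p = 0.0333). These weigh the pools (-1.03 and -1.21) as much as the 4 cultures, which alone gave -0.56 and -0.51. Of 11 thyroid follicular markers, 9 were above background in all 20 array channels. *Duoxa2* was so in 19 and *Iyd* in 2. The defining markers *Ptprc* (leukocytes), *Pecam1* (endothelium), *Chga* (C cells), *Dcn* and *Lum* (fibroblasts) were above background in 0 of 20. The averaged level of the 3 measured fibroblast genes lay between 7.28 and 7.64 in siFoxE1, 7.25 and 7.53 in siScramble, and 7.27 and 7.52 in wt cultures. For all genes below, fewer cells of a kind and less RNA per cell cannot be told apart in such bulk RNA.

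*Cdh1* and *Prss8* had the highest ratios of the 10 genes, roughly a doubling in silenced cells. *Itgb4*, *Bcam*, *Jup*, *St14* and *F11r* had smaller positive ratios, and *Tjp3* had negative ones. *Cldn3* and *Epcam* were not above background and were not tested. The remaining 8 genes had ratios of a single sign on all 10 arrays, 7 above 0 and 1 below 0. The share of all probes with a single sign was not counted. Related genes outside the 10 had it too, such as *Evpl*, *Magi3* and *Lamb3* (above 0) and *Magi1* (below 0). The median log2 fold change of the 8 genes was 0.44 against siScramble and 0.67 against wt, beside -0.01 over all probes in both comparisons. At an adjusted p under 0.05 (limma with Benjamini-Hochberg adjustment over all probes), 2 of the 8 passed against siScramble and 0 against wt, where 0.121% of all 18139 probes and 0.0486% of 18526 probes passed. With the culture numbers as a replicate block over all 10 arrays, 3 of the 8 passed against siScramble and 6 against wt, where 0.359% and 8.17% of all 17804 probes passed. The genes were chosen on these ratios, and nothing is read from the counts.

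**Figure D1:**
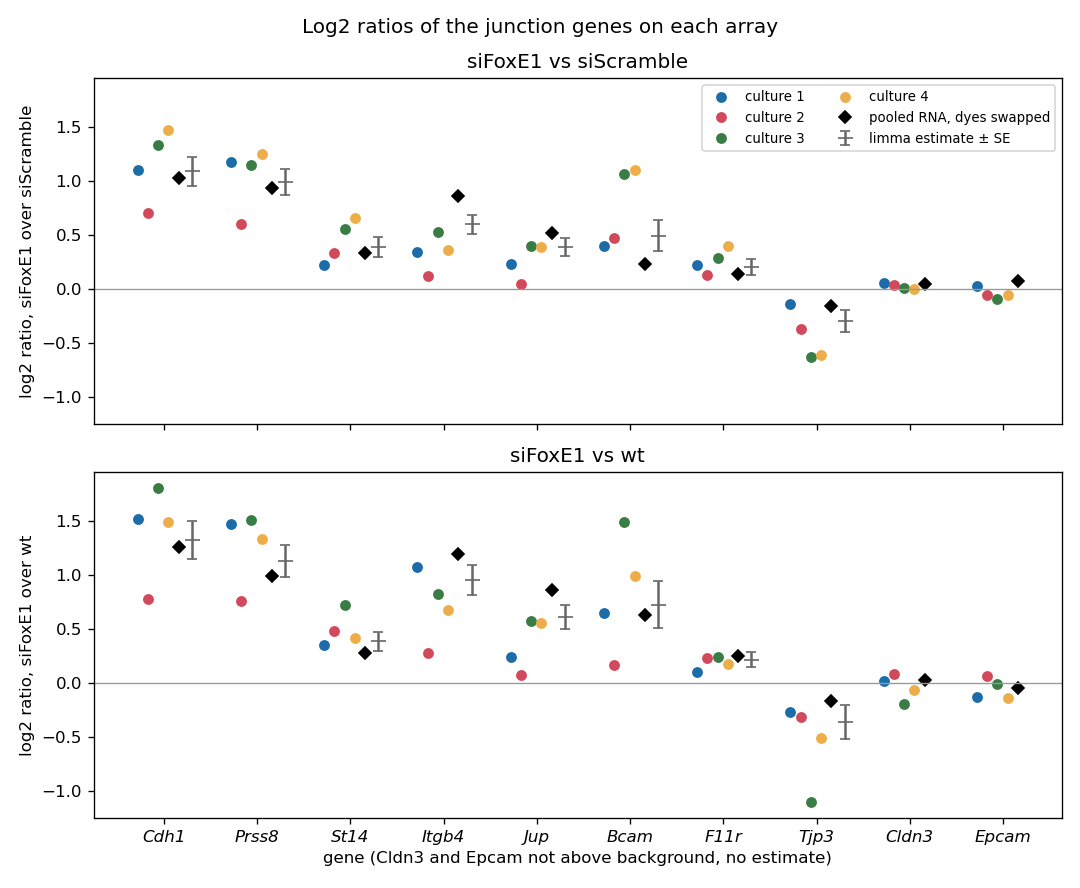
Log2 ratio of siFoxE1 over siScramble (top) and over wt (bottom) for the 10 genes on each array; circles are cultures 1 to 4, diamonds the pooled dye-swapped arrays, and grey bars the limma estimate with its standard error. Culture 2 (red) had the lowest culture ratio of Cdh1 and Prss8 in both comparisons, and Tjp3 lay below 0 throughout.

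*Cdh1* encodes E-cadherin, the adhesion protein that binds its own kind on the neighbouring cell. Its log2 level in cultures 1 to 4 was 8.61, 8.45, 8.69 and 8.63 in siFoxE1 cells, against 7.53, 7.76, 7.36 and 7.18 in siScramble cells and 7.08, 7.65, 6.88 and 7.10 in wt cells. The silenced cultures were all above every siScramble and wt culture. How many of all probes show such a separation was not counted, here and for the genes below. The siFoxE1 levels had an SD of 0.106, against 0.243 in siScramble and 0.330 in wt (n = 4 each). These SDs are not alike, since a siFoxE1 level is the mean of 2 arrays and the other levels come from a single array. The log2 ratios over siScramble were 1.11, 0.70, 1.33 and 1.47 in the cultures and 1.03 in the pool. Over wt they were 1.52, 0.78, 1.81 and 1.50, and 1.26 in the pool. Culture 2 had the lowest ratio in both comparisons, and its siScramble and wt cells had the highest *Cdh1* levels of their groups, while its siFoxE1 cells had the lowest.

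The limma estimate was a log2 fold change of 1.09 for *Cdh1* against siScramble (2.13-fold, SE 0.133, adjusted p = 0.0431), the second highest of 18139 probes. Against wt it was 1.33 (2.52-fold, SE 0.177, adjusted p = 0.117), the eleventh highest of 18526, and with the replicate block the adjusted p there was 0.000571. Without culture 1 the adjusted p against siScramble was 0.149, and from the scanner software's processed signals it was 0.190 at a log2 fold change of 1.44. With no filter on dim probes it was 0.109. *Cdh1* was above background on all arrays but dim, and the offset of 50 added to the signals narrows ratios of dim probes. The study, with its own fit, listed *Cdh1* as upregulated at an adjusted p under 0.005 in both comparisons. It also reported more *Cdh1* RNA by quantitative PCR and more of the protein by western blot after silencing.

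*Prss8* encodes prostasin, a serine protease anchored in the outer membrane of epithelial cells. Its probe stood at 10 spots on each array, of which the mean was taken. In cultures 1 to 4 its log2 level was 8.60, 8.05, 8.23 and 8.21 in siFoxE1 cells, against 7.42, 7.46, 7.12 and 6.97 in siScramble cells and 7.13, 7.29, 6.68 and 6.86 in wt cells. Again no silenced culture overlapped the siScramble or wt cultures. Its ratio over siScramble was 1.18, 0.60, 1.16 and 1.25 in the cultures and 0.94 in the pool, and over wt 1.48, 0.76, 1.51 and 1.34, with 0.99 in the pool. Culture 2 again had the lowest ratio in both comparisons. The log2 fold change was 0.99 against siScramble (1.99-fold, SE 0.122, adjusted p = 0.0431) and 1.13 against wt (2.19-fold, SE 0.147, adjusted p = 0.117, and 0.000494 with the replicate block). The adjusted p against siScramble was 0.149 without culture 1, 0.0537 without culture 4, 0.178 from the processed signals (log2 fold change 1.43) and 0.109 with no filter on dim probes.

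*St14* encodes matriptase, the transmembrane protease that acts with prostasin. Its log2 level was 10.77, 11.02, 11.17 and 10.89 in siFoxE1 cultures, against 10.56, 10.71, 10.61 and 10.28 in siScramble and 10.42, 10.51, 10.46 and 10.42 in wt cultures. These groups did not overlap either, though the lowest siFoxE1 culture lay only just above the highest siScramble culture. The wt cultures were the tightest of all, with an SD of 0.0454. The log2 fold change was 0.39 against siScramble (SE 0.0934, adjusted p = 0.212) and 0.39 against wt (SE 0.0882, adjusted p = 0.234, and 0.0246 with the replicate block). *St14* had smaller log2 ratios than *Prss8* on each of the 10 arrays, from 0.22 to 0.72 against 0.60 to 1.51.

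**Figure D2:**
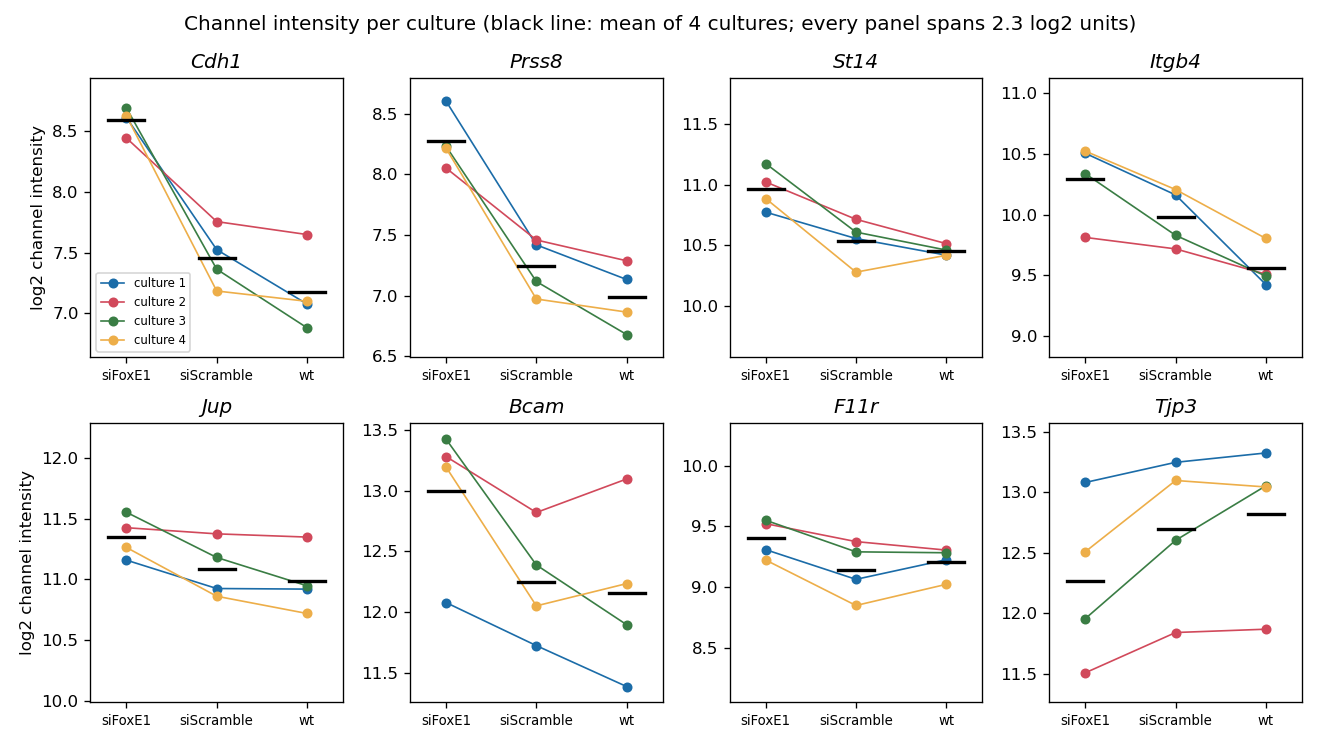
Log2 channel intensity of 8 genes in siFoxE1, siScramble and wt cells of cultures 1 to 4 (points joined by culture, black line the mean of 4; the siFoxE1 value is the mean of its 2 arrays). Cdh1, Prss8 and St14 do not overlap between siFoxE1 and the other conditions, while the others overlap although each culture's own siFoxE1 value is on one side of its siScramble and wt values. The genes were chosen on these ratios, and the share of all probes with either pattern was not counted.

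Adhesion to laminin of the basement membrane is represented by *Itgb4* and *Bcam*. *Itgb4* encodes the integrin chain of the hemidesmosome. It had log2 levels of 10.51, 9.81, 10.34 and 10.52 in siFoxE1 cultures, against 10.16, 9.72, 9.83 and 10.21 in siScramble and 9.42, 9.51, 9.49 and 9.80 in wt cultures. In each culture siFoxE1 was above both other conditions, but culture 2 of siFoxE1 lay below 3 siScramble cultures. The ratios over siScramble were 0.35, 0.12, 0.53 and 0.36, and the pool gave 0.86. Over wt they were 1.08, 0.28, 0.82 and 0.67, and the pool gave 1.20. The pooled array exceeded every culture in both comparisons. The log2 fold change, which weighs the pool equally with the 4 cultures, was 0.60 against siScramble (SE 0.0854, adjusted p = 0.0780, and 0.0481 with the replicate block) and 0.95 against wt (SE 0.142, adjusted p = 0.124, and 0.00112 with the block). From the cultures alone it was 0.34 against siScramble.

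*Bcam* encodes the Lutheran glycoprotein, a laminin receptor of the immunoglobulin family. It varied most between cultures of one condition among the genes with positive ratios, with log2 levels of 12.08, 13.28, 13.43 and 13.20 in siFoxE1, 11.72, 12.82, 12.39 and 12.05 in siScramble, and 11.39, 13.10, 11.90 and 12.24 in wt cultures. Culture 1 was lowest in each condition, and siFoxE1 was highest within each culture. The ratios over siScramble were 0.40, 0.48, 1.07 and 1.11, with 0.23 in the pool. Over wt they were 0.65, 0.17, 1.50 and 1.00, with 0.63 in the pool. Cultures 3 and 4 had larger ratios than cultures 1 and 2 in both comparisons. The log2 fold change was 0.50 against siScramble (SE 0.146, adjusted p = 0.253) and 0.73 against wt (SE 0.220, adjusted p = 0.239, and 0.0393 with the replicate block), and 0.76 against siScramble from the cultures alone.

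*Jup* encodes plakoglobin, a catenin shared by adherens junctions and desmosomes. Its log2 level was 11.16, 11.43, 11.55 and 11.26 in siFoxE1, against 10.92, 11.37, 11.18 and 10.86 in siScramble and 10.92, 11.35, 10.95 and 10.72 in wt cultures. In culture 2 the conditions were nearly equal, with ratios of 0.05 over siScramble and 0.08 over wt. The other cultures gave 0.23, 0.40 and 0.39 over siScramble and 0.24, 0.58 and 0.56 over wt. The pools gave 0.52 and 0.87, again above every culture. The log2 fold change was 0.39 against siScramble (SE 0.0846, adjusted p = 0.192) and 0.62 against wt (SE 0.112, adjusted p = 0.221, and 0.00718 with the replicate block), and 0.37 against wt from the cultures alone.

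*Tjp3*, at the tight junction, encodes ZO-3, a scaffold protein under the tight junction. It had log2 levels of 13.08, 11.51, 11.96 and 12.51 in siFoxE1, against 13.25, 11.84, 12.60 and 13.10 in siScramble and 13.32, 11.87, 13.05 and 13.04 in wt cultures. Each culture was lower when silenced, yet the cultures of a condition differed by up to 1.57, more than any silencing ratio. The ratios over siScramble were -0.14, -0.37, -0.63 and -0.61, with -0.16 in the pool, and over wt -0.27, -0.32, -1.11 and -0.51, with -0.17 in the pool. The log2 fold change was -0.30 against siScramble (SE 0.102, adjusted p = 0.294) and -0.36 against wt (SE 0.158, adjusted p = 0.303), and -0.55 against wt from the cultures alone. *F11r* encodes the junctional adhesion molecule JAM-A. Its ratios were small, from 0.13 to 0.40 over siScramble and from 0.10 to 0.25 over wt, and its log2 fold changes were 0.20 (adjusted p = 0.309) and 0.22 (adjusted p = 0.239).

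*Cldn3*, a claudin of the tight junction strand, and *Epcam*, an adhesion molecule found on most epithelia, were not well above background with their probes. *Cldn3* was above background in 1 of 20 channels and *Epcam* in 0. The log2 levels of *Cldn3* were 5.92 to 5.98 in siFoxE1, 5.88 to 6.08 in siScramble and 5.90 to 6.04 in wt cultures. *Epcam* lay at 5.94 to 6.04, 5.99 to 6.08 and 5.89 to 6.09 in the same order. No fold change is given, since both sides of the ratio lay at background.

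Repeated hybridization of one siFoxE1 extract, once beside siScramble and once beside wt, gave levels that differed by at most 0.104 for the 8 measured genes. This was smaller than the spread between siFoxE1 cultures for each of them. In the siScramble comparison, culture 3 and the pool were on a second slide. The culture 3 ratio there and the mean of the 3 cultures on the first slide were 1.33 and 1.09 for *Cdh1*, 1.16 and 1.01 for *Prss8*, 0.56 and 0.41 for *St14*, 0.53 and 0.28 for *Itgb4*, 0.40 and 0.22 for *Jup*, 1.07 and 0.66 for *Bcam*, 0.29 and 0.25 for *F11r*, and -0.63 and -0.38 for *Tjp3*. With slide as a term, the log2 fold change was 1.18 for *Cdh1*, 1.05 for *Prss8* and 0.70 for *Itgb4*, which then passed (adjusted p = 0.0420). All wt arrays were on the first slide.

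RefSeq promoter windows, 250 bases before to 50 bases after the start, matched 6 of the 10 genes, namely *Jup*, *Bcam*, *Tjp3*, *F11r*, *Cldn3* and *Epcam*. The windows of *Jup* and *Bcam*, with positive ratios on all arrays, and of *Tjp3*, with negative ones, are shown to set genes of both directions side by side, 5′ to 3′ along the gene. Capitals mark CAGGTG on either strand (CACCTG on the other), the E-box core that Snail and Zeb repressors of E-cadherin are known to bind. The forkhead core AAACA was searched on both strands as well and would stand in capitals too.
Jup (GRCr8 chr10:85827380-85827679, minus strand): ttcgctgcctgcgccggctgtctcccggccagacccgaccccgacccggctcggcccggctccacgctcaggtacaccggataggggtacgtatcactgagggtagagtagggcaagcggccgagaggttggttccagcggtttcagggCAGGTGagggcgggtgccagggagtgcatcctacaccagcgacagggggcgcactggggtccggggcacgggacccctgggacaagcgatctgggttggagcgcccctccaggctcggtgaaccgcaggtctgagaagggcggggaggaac
Bcam (GRCr8 chr1:88557309-88557608, minus strand): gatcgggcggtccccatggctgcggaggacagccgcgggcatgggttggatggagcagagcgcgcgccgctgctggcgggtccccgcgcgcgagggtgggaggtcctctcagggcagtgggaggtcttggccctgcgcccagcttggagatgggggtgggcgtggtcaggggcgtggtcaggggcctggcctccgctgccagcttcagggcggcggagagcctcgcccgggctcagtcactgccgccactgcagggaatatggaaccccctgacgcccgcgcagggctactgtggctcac
Tjp3 (GRCr8 chr7:9084174-9084473, plus strand): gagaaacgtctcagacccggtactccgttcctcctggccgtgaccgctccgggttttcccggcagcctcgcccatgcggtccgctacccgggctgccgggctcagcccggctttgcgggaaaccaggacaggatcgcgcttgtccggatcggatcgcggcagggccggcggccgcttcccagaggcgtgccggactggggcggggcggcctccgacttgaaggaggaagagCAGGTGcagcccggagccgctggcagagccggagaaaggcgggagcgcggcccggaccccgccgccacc
The start is the one RefSeq's window was built on, which for *Jup* and *Tjp3* lies inside the gene's outermost ends. CAGGTG began 101 bases before it in *Jup* and 19 bases before it in *Tjp3*, and was not in the *Bcam* window. It was also in the windows of *F11r*, *Cldn3* and *Epcam*, so in 5 of 6, and in 18.8% of all 33469 promoter windows of this length. AAACA was in 0 of the 6 windows and in 51.9% of all. TTGG followed by AAACA after 5 to 30 bases was in 0 of 6 and in 7.4% of all. *Cdh1*, *Prss8*, *St14* and *Itgb4* had no window here. The study searched wider promoter regions and listed this pair for *Cdh1*, but its chromatin immunoprecipitation did not detect FoxE1 there. The 6 windows had 58.0 to 75.7% G and C, and the shares over all windows were not matched for base composition, so nothing is read from the difference. These are letter matches in short windows and were not tied to binding.

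siScramble and wt cells were never on one array, and their difference was taken from both comparisons in a fit of all 10 arrays. The genes were not chosen on this difference itself. It is made from the ratios they were chosen on, however, so it is not free of that choice. Of the 8 measured genes, 6 had a positive and 2 a negative log2 difference, with a median of 0.14 beside -0.01 over all probes. *Itgb4* had the highest, at 0.37 (SE 0.135, unadjusted p = 0.0204, adjusted p = 0.988, limma), and siScramble was above wt in 4 of 4 cultures. *Cdh1* was at 0.24 (SE 0.190) and *Prss8* at 0.19 (SE 0.163), both also above wt in 4 of 4 cultures. *Jup* was at 0.15, above wt in 4 of 4 as well, and *Bcam* at 0.13, above wt in 2 of 4. *St14*, *F11r* and *Tjp3* lay between -0.09 and 0.03, above wt in 3, 2 and 1 of 4. These culture counts compare levels from different arrays, and their share over all probes was not counted. None of the 8 passed in limma, where 604 of all 17804 probes had an unadjusted p under 0.05 and 0% passed after adjustment. With the replicate block 0.0618% of all probes passed, 11 in number and again with 0 of the 8, and *Itgb4* had an adjusted p = 0.182.

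Beyond the 10 genes, 8 lists of related genes were followed, with 60 measured members in each siFoxE1 comparison. None of these passed at an adjusted p under 0.05 in limma, while 15 (25.0%) against siScramble and 14 (23.3%) against wt had an unadjusted p under 0.05, as did 13.1% and 17.2% of all probes. Their median log2 fold change was 0.03 against siScramble and 0.06 against wt. The lists were chosen with earlier results of these data known. A list gene is represented by its brightest tested probe, while the shares of all probes include dimmer and further probes of a gene. Nothing is read from the difference in shares.

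Of 14 further adherens junction genes listed, 9 were measured, with log2 fold changes from -0.10 to 0.19 against siScramble and from -0.22 to 0.25 against wt. *Ctnnb1*, which encodes beta-catenin, was at 0.19 against siScramble and 0.25 against wt, and *Nectin2*, a nectin adhesion receptor, at 0.16 and 0.21. At the other end, *Ctnnd1*, which encodes the catenin p120 that steadies cadherins at the surface, was at -0.10 and 0.08, and *Vcl*, the actin linker vinculin, at -0.05 and -0.22. The list medians were 0.01 and 0.06. The tight junction list had medians of 0.02 and 0.01, with *Magi3*, a scaffold protein, at 0.34 and 0.42 and *Crb3*, an apical polarity protein, at 0.34 and 0.34. *Magi1* was lowest at -0.21 and -0.12.

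Of 10 desmosome genes listed, 5 were measured, and these lay above 0 in both comparisons, from 0.01 for *Pkp2* to 0.48 against siScramble, with medians of 0.16 and 0.14. The highest was *Evpl*, the keratin-associated envoplakin, at 0.48 (adjusted p = 0.290) and 0.70 (adjusted p = 0.234), followed by *Ppl*, its partner periplakin, at 0.30 and 0.14. In the laminin list *Lamb3*, a chain of the laminin under hemidesmosomes, was at 0.43 (adjusted p = 0.163) and 0.49 (adjusted p = 0.250), while *Lamb2* was at -0.11 and -0.15. Among genes of the protease cascade *Scnn1g*, a subunit of the epithelial sodium channel that prostasin is known to activate, was at 0.57 (adjusted p = 0.156) and 0.63 (adjusted p = 0.234). Its sister subunit *Scnn1b* was at -0.00 and -0.03, and *Met*, the receptor of hepatocyte growth factor, at 0.00 and -0.03.

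Of 13 regulators of the epithelial state, 5 were measured, with medians of 0.00 and 0.06. *Elf3*, an epithelial ETS factor, was highest at 0.31 (adjusted p = 0.303) and 0.43 (adjusted p = 0.226), and *Grhl2*, a Grainyhead factor that maintains *Cdh1*, at -0.14 and -0.05. Of the known repressors of E-cadherin, *Zeb2* was lowest at -0.24 (adjusted p = 0.359) against siScramble and -0.32 (adjusted p = 0.299) against wt, and *Snai1* was at 0.07 against siScramble. Mesenchymal genes had medians of 0.05 and 0.05. *Sparc*, a matrix protein, was at 0.15 and 0.32, *Tagln*, an actin-binding protein, at -0.16 and -0.30, and *Vim*, the filament protein vimentin, at -0.04 and 0.07.

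**Figure D3:**
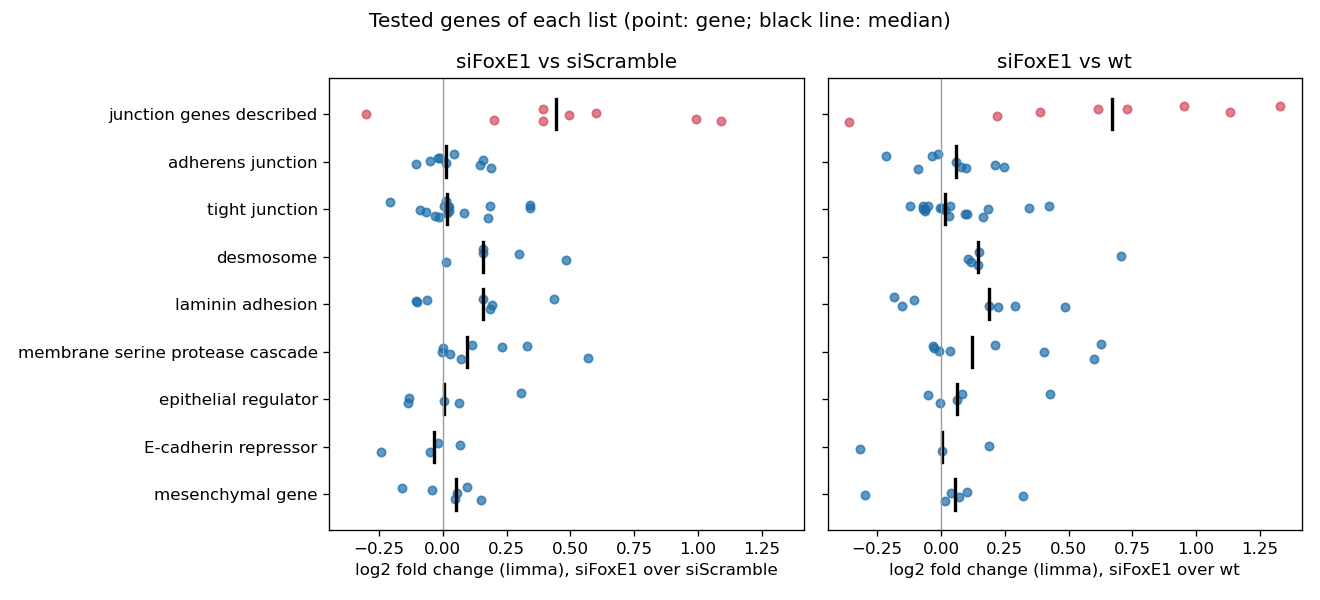
Limma log2 fold changes against siScramble (left) and wt (right) of the measured genes of each list, one point per gene, with the list median as a black line; the top row holds the 8 genes described here. The other lists have medians between -0.03 and 0.19, and the top row was chosen on these ratios.

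Among 9570 genes measured in both comparisons, *Prss8* was the one whose 10 log2 ratios lay nearest to those of *Cdh1*, by a root mean square difference of 0.171. It was followed by *RT1-Db1*, a chain of MHC class II (0.255), *Folr1*, a folate receptor (0.267), *S100a4*, a calcium-binding protein (0.267), and *Cd74*, the class II invariant chain (0.285). The 10 points share the siFoxE1 extracts and the arrays. *Cdh1* and *Prss8* were both chosen with these ratios known. The distance also counts the size of the ratios, not only their pattern over cultures, so nothing is read from the ranks. *Cd74* had a log2 fold change of 1.18 against siScramble, the highest of all probes, and 1.22 against wt, and *S100a4* of 0.99 and 1.49. Of the other junction genes *Bcam* ranked 28, *Itgb4* 73, *St14* 240, *Jup* 334 and *F11r* 1184, and *Tjp3*, with the opposite sign, 9358.

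**Figure D4:**
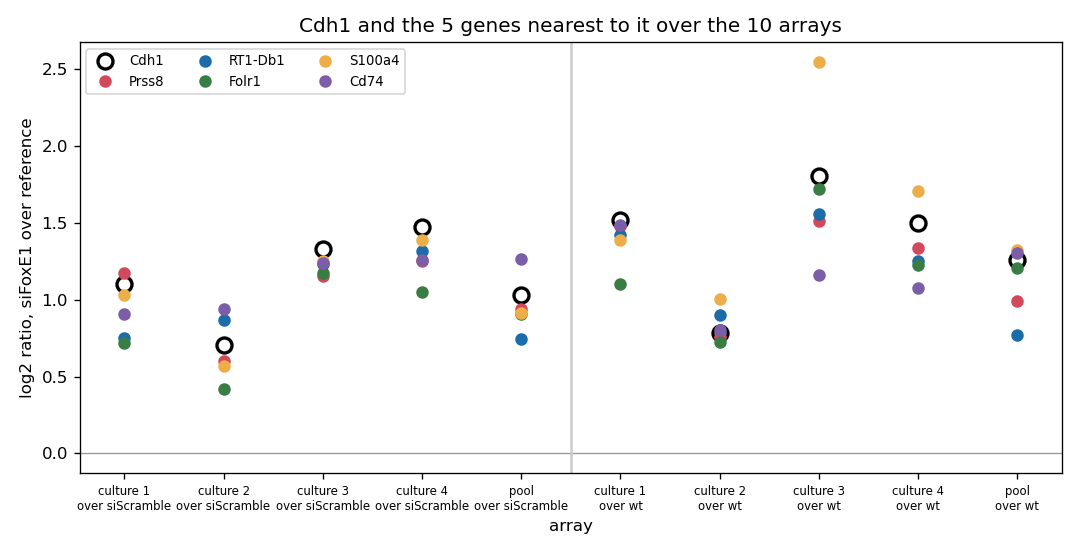
Log2 ratio of siFoxE1 over siScramble (left) and over wt (right) on the 10 arrays for Cdh1 (open circles) and the 5 genes with the smallest root mean square difference from it. All 6 genes were above 0 on each array, and their ratios in culture 2 over wt lay at 1.01 or below, while S100a4 in culture 3 over wt reached 2.55.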

How the data were processed

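The authors scanned the arrays with Agilent Feature Extraction 10.7.3.1, which gave the deposited spot intensities (median signal and background per dye). Their separate deposited table holds log2 ratios after loess and quantile normalization, with limma 3.2.3 named in the submitters' notes. Its log2 values served as an alternative.

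Median signals were corrected by normexp (offset 50), then loess was run inside each array and quantile scaling over all arrays, and spots were averaged per probe, in limma 3.58.1 (R 4.3.3, with data.table at version 1.17.8). Control spots and the 1.25 to 1.60% of spots marked as outliers were left out of the loess fit and of the spot averages. Both were still in the normexp step, and the marked spots also in the quantile step. Probes (30367, of which 17998 were named by transcript accession through RefSeq) entered a test if one channel had them well above background on 3 or more of 5 arrays. Each comparison was fitted on its 5 arrays with a dye term, leaving 3 residual degrees of freedom, and the siFoxE1 level of a culture is the mean of its 2 arrays. Dyes follow the sample labels, since the colour key in the study's design drawing has them the other way round, and *Foxe1* is then lower in siFoxE1 cells. Precision is limited by how few arrays there are.

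The culture numbers pair the arrays, because the study's design drawing shows the same siFoxE1 sample feeding both same-numbered arrays. Deviations from the comparison mean correlated at r = 0.616, 0.757, 0.764 and 0.406 across probes for the same number and at -0.65 to 0.506 for different ones. The block fit (duplicateCorrelation) had a within-number correlation of 0.541. Members and lists were chosen with earlier results of these data known. Named were all 10 genes, called genes and up to 2 highest and 2 lowest genes per list against siScramble, the 5 genes nearest *Cdh1*, and *Foxe1*. In all, 19 alternatives were run. The fit was tested on simulated data. Motif searches used pandas 2.3.3 under Python 3.11.15, and plots used matplotlib 3.10.9 and numpy 2.4.6.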

Additional observations from a re-analysis of the deposited data

Results flagged for a closer look

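In 55 groups of 4 cultures (the 10 genes and *Foxe1*, ratios and levels), 2 had 1 culture far from the others by Dixon's criterion, which chance gives in about 1 of 20 groups. The *Prss8* log2 ratio of siFoxE1 over siScramble was 0.60 in culture 2, against 1.16 to 1.25 in the other cultures. The *Bcam* log2 level in siFoxE1 cells was 12.08 in culture 1, against 13.20 to 13.43 in the others, and culture 1 also had the lowest *Bcam* level in siScramble and wt cells.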

How the results depend on the processing

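The log2 fold changes of the 8 measured genes against siScramble and wt kept their sign in all 280 values of 18 alternatives, of which 36 newly passed and 9 no longer passed an adjusted p of 0.05. Alternatives that only left out cultures or pools, dropped the dye term or changed the probe filter could not reverse a sign. Each gene already had a single sign on every array. *Cdh1* ranged from 1.04 to 1.44 against siScramble (adjusted p 0.000971 to 0.190) and from 1.26 to 1.80 against wt (0.000571 to 0.386). Between siScramble and wt the sign of *St14* (-0.0070 to 0.095), *Tjp3* (-0.140 to 0.0048) and *F11r* (-0.075 to 0.0082) depended on which culture was left out.

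Counts of all probes passing were 22 against siScramble, 9 against wt and 0 between siScramble and wt. Processed signals gave 0 and 0 (2061 and 2663 at an unadjusted p under 0.05), no dye term 689 and 844, culture arrays alone 527 and 211, 1 fit of all 10 arrays without the replicate block 97 and 1659, and the replicate block 64, 1454 and 11. Slide as a term gave 66 against siScramble, and an offset of 10, chosen after seeing the data, 14. Leaving out 1 culture gave 12 to 35 against siScramble and 0 to 65 against wt, the 0 without culture 4 (1739 unadjusted), and 0 to 0 between siScramble and wt. The cause of these shifts was not tested. Against wt, *Cdh1* and *Prss8* passed without culture 2 (both adjusted p = 0.0136) and without culture 3 (0.0303 and 0.0369). *Foxe1* no longer passed in 4 alternatives per comparison: without culture 1 (adjusted p = 0.0542 against siScramble and 0.236 against wt), with processed signals (0.178 and 0.177), with the offset of 10 (0.0856 and 0.0660), with no filter on dim probes against siScramble (0.0525) and without culture 4 against wt (0.234). With no filter, *Cdh1* and *Prss8* no longer passed against siScramble (both 0.109), nor with the offset of 10 (both 0.103). A slide term could not be fitted for wt alone, and other probes of a gene were not run, since each has 1. Dim probes limit *Cldn3* and *Epcam*.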
